A study of Homo sapiens with 6 samples.

Results

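Matricellular proteins are secreted proteins that sit in the extracellular matrix without building its fibres. They bind matrix proteins, growth factors, proteases and cell-surface receptors such as integrins, and so alter how a cell adheres, spreads and migrates. In breast tumors they come from both stromal and cancer cells, and several of them are known as products of TGF-β signaling. The group described here holds 8 genes of the 23228 in the count tables: the thrombospondins THBS1, THBS2 and THBS3, the fasciclin-domain proteins TGFBI and POSTN, the tenascin TNC, the collagen-binding protein SPARC and the integrin-binding phosphoprotein SPP1 (osteopontin). The genes were chosen by family and role, and selected on counts of control and PELP1-KD cells whose differences were already known. Their differences between the groups are therefore given as a description, without p-values.

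The cells were MDA-MB-231, an established human line of triple negative breast cancer (TNBC). The control group, 3 libraries, was a line stably carrying a non-targeted shRNA, and the PELP1-KD group, also 3 libraries, was the same line stably carrying a PELP1 shRNA. Per the study's methods, both were made with lentiviral particles, and a single PELP1 hairpin was used. Both were made by puromycin selection and grown in RPMI with FBS per the labels, which do not say that replicates were selected separately, so the spread between replicates may be technical.

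The counts on genes summed to between 17304864 and 23132102 per library. Reads counted on PELP1, a coregulator of nuclear receptors and a ribosome biogenesis factor, were 968, 1274 and 1069 in replicates 1, 2 and 3 of the control and 557, 637 and 712 in those of PELP1-KD. The fitted log2FC of PELP1 was -0.97 (SE, the standard error, 0.055, edgeR adjusted p-value 1.48e-11; two-sided exact permutation p = 0.1, the smallest that 3 against 3 allows). Of the markers of a mesenchymal breast cancer line, 4 of 4 (VIM, CD44, AXL and CAV1) were expressed, and together they had 5517 to 5603 CPM (counts scaled to library size, as CPM after TMM) in control and 4617 to 4653 CPM in PELP1-KD libraries. The luminal markers ESR1, PGR and CDH1 had at most 4 counts in any library, while ERBB2, EPCAM and GATA3 were expressed and did not pass the test. The remaining luminal marker, FOXA1, fell from 11, 26 and 20 counts to 7, 0 and 5 counts, with a log2FC of -2.37 (edgeR adjusted p-value 0.00051). FOXA1 was low throughout, at 0.65, 1.14 and 1.13 CPM in control and 0.36, 0 and 0.21 CPM in PELP1-KD libraries. It passed the filter on low counts, at 0.498 CPM, through the control libraries alone. Since these are bulk samples, a change in the number of expressing cells and a change in RNA per cell cannot be told apart for any gene below.

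The 8 genes ranged from among the most highly counted of all genes to 0 counts. Levels were compared between genes as RPKM, the CPM divided by the exon length in kilobases. The lengths sum all annotated exons of a gene in GENCODE release 29, for example 9158 bases for THBS1 and 7810 for TGFBI. They may differ from the transcripts made in these cells, and the annotation behind the counts is not given. The order, shares and ratios between genes depend on these lengths. In control cells the order was THBS1 at 251 RPKM ± 8.47 (SD, n = 3), TGFBI at 54.6 ± 1.41, TNC at 7.81 ± 0.286, SPARC at 1.04 ± 0.087, THBS3 at 0.369 ± 0.046 and THBS2 at 0.116 ± 0.0067. The same order held in PELP1-KD cells, and the libraries of neighbouring genes in this order did not overlap in either group. POSTN and SPP1 were at or below the floor of detection, taken as 3 counts, which corresponds to between 0.127 and 0.177 CPM per library and covers counting error only. With these lengths, THBS1 alone made up between 78.8% and 80.6% of the summed RPKM of the 8 genes in the 6 libraries. Its share did not separate the groups, whereas the summed RPKM was 311 to 324 in control and 645 to 656 in PELP1-KD libraries.

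**Figure D1:**
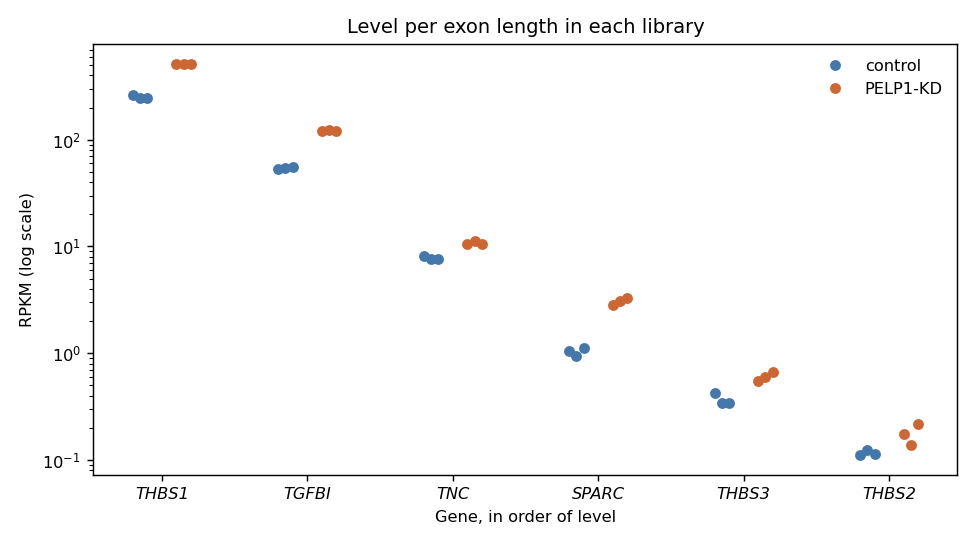
Level of the 6 expressed genes as RPKM on a log axis, with a dot for each library, control in blue and PELP1-KD in orange, and genes in order of level. THBS1, at 251 RPKM in control cells, lies above TGFBI, TNC, SPARC, THBS3 and THBS2 in both groups, and for each gene the orange dots lie above the blue ones.

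THBS1 encodes thrombospondin 1, a trimeric glycoprotein that binds CD36 and CD47, inhibits angiogenesis and can activate latent TGF-β. It was counted 40443, 51584 and 39899 times in replicates 1, 2 and 3 of the control, and 91193, 101001 and 111212 times in those of PELP1-KD. Scaled to library size, this was 2391, 2270 and 2247 CPM in control libraries and 4678, 4734 and 4725 CPM in PELP1-KD libraries. Every PELP1-KD library was thus above every control library, and the PELP1-KD libraries lay close together, with a coefficient of variation of 0.636% against 3.37% in the controls. By raw counts, THBS1 ranked 9th, 10th and 10th among all genes in the control libraries and 2nd in each PELP1-KD library, where it took between 0.475% and 0.482% of all counts on genes. The mean was 2303 ± 77.6 CPM under control shRNA and 4713 ± 30.0 CPM under PELP1-KD (SD, n = 3 each), and the log2FC was 1.03 (standard error 0.024). Of the genes that overlap THBS1 in the GENCODE annotation, FSIP1 on the opposite strand is in the count tables, and it had between 11 and 29 counts per library.

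THBS2, the closest relative of THBS1 and likewise a trimeric inhibitor of angiogenesis, was barely expressed. It had 12, 18 and 13 counts in replicates 1, 2 and 3 of the control and 22, 19 and 33 counts in those of PELP1-KD. The lowest PELP1-KD library, at 0.891 CPM, was above the highest control library, at 0.792 CPM, but the PELP1-KD libraries spread up to 1.40 CPM. The log2FC was 0.61 with a standard error of 0.28, so that this gene was measured with the least precision of the 6 tested. THBS3, which belongs to the subgroup of thrombospondins that form pentamers, had 33, 36 and 28 counts in replicates 1, 2 and 3 of the control and 49, 59 and 72 counts in those of PELP1-KD. This was between 1.58 and 1.95 CPM in control libraries and between 2.51 and 3.06 CPM in PELP1-KD libraries, with no overlap between the groups. The log2FC of THBS3 was 0.72 (standard error 0.19). THBS3 overlaps MTX1 on the opposite strand over 353 bases, and MTX1 had between 212 and 366 counts per library; since the use of strand in the counting is not given, the low counts of THBS3 are uncertain.

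TGFBI encodes a matrix protein of fasciclin domains that binds collagens and integrins and is named for its induction by TGF-β. It had 7026, 9691 and 7768 counts in replicates 1, 2 and 3 of the control and 18214, 20677 and 22040 counts in those of PELP1-KD. In CPM, control libraries were at 415, 426 and 437, and PELP1-KD libraries at 934, 969 and 936. The groups were far apart relative to their spread, with coefficients of variation of 2.58% and 2.06%. The mean was 426 CPM ± 11.0 (SD, n = 3) against 947 CPM ± 19.5 (SD, n = 3), and the log2FC was 1.15 (standard error 0.029). By raw counts, TGFBI moved from ranks between 334 and 375 in control libraries to ranks between 50 and 57 in PELP1-KD libraries. Its paralog POSTN (periostin), which is made mainly by fibroblasts and bone-forming cells, had 1 count in each control library and 0, 1 and 2 counts in the PELP1-KD libraries, which is 3 counts in total in each group. No difference could be detected for POSTN at this depth.

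TNC encodes tenascin C, a hexameric glycoprotein with EGF-like repeats that weakens cell adhesion to fibronectin and marks invasive tumor stroma. Its counts were 1327, 1680 and 1305 in replicates 1, 2 and 3 of the control and 1974, 2292 and 2373 in those of PELP1-KD. The control libraries were at 78.5, 73.9 and 73.5 CPM and the PELP1-KD libraries at 101, 107 and 101 CPM. The groups did not overlap, but the log2FC, 0.46 (standard error 0.045), was the smallest of the 6 genes tested.

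SPARC (osteonectin) encodes a collagen-binding, counter-adhesive protein. It had 86, 104 and 96 counts in replicates 1, 2 and 3 of the control and 267, 317 and 372 counts in those of PELP1-KD. In CPM, the control libraries were at 5.09, 4.58 and 5.41 and the PELP1-KD libraries at 13.7, 14.9 and 15.8. SPARC thus had the largest difference of the group, with a log2FC of 1.57 (standard error 0.10), from a level that remained low in both groups. SPP1, which encodes an integrin- and CD44-binding protein of bone, macrophages and many carcinomas, had 0 counts in each of the 6 libraries.

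**Figure D2:**
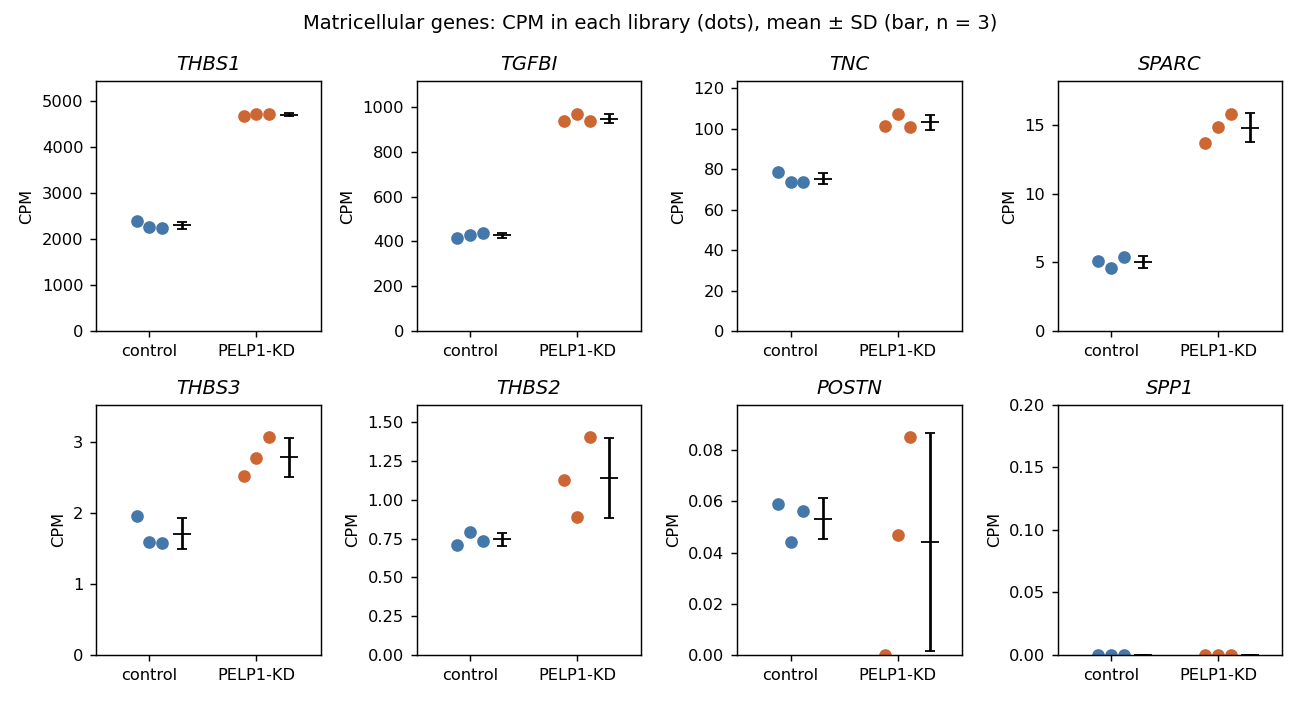
CPM of the 8 genes in each library (dots, replicates 1 to 3 from left to right), with the mean and SD of each group (black, n = 3) and a linear axis from 0 in each panel. The PELP1-KD dots lie above all control dots for THBS1, TGFBI, TNC, SPARC, THBS3 and THBS2, whereas POSTN and SPP1 are at or below 2 counts in every library.

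Of the 8 genes, 6 had enough counts to be tested, and each of these passed the filter on low counts in the control libraries as well as in the PELP1-KD libraries. By the fit with edgeR's quasi-likelihood model, the log2FC was positive in all 6, with a median of 0.88 beside 0.0014 over all 12796 tested genes. By the fit across all genes, 5 of the 6 (all but THBS2) were called higher at an adjusted p-value below 0.05, where 22.7% of all tested genes were. With a log2FC above 1 as well, THBS1, TGFBI and SPARC were called, where 1.9% of all tested genes were. The groups did not overlap, with PELP1-KD above, in 6 of 6 genes and in 27.0% of all tested genes. Nothing is read from these shares, because this same contrast was known when the genes were chosen. The genes did not differ by 1 common factor: the RPKM of TGFBI was between 6.53 and 7.34 times that of TNC in control libraries and between 11.1 and 11.5 times in PELP1-KD libraries. Likewise, TNC was between 6.82 and 8.10 times SPARC in control and between 3.20 and 3.71 times SPARC in PELP1-KD libraries. The ratio of THBS1 to TGFBI moved less, from between 4.38 and 4.91 in control to between 4.17 and 4.30 in PELP1-KD libraries. The size of each ratio depends on the exon lengths used, whereas its relative change between the groups does not.

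**Figure D3:**
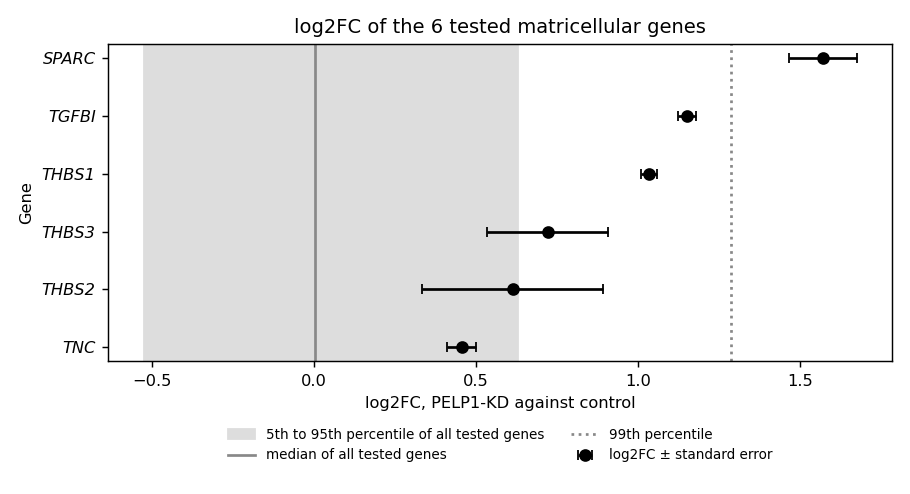
log2FC, PELP1-KD against control, of the 6 tested genes (dots) with the standard error (bars), beside the range from the 5th to the 95th percentile of all tested genes (grey). SPARC, at 1.57, lies beyond the 99th percentile of 1.29, and TNC and THBS2 lie within the grey range, which ends at 0.63.

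The stretches of 250 bases before the RefSeq start of transcription are shown for the 4 genes with the highest levels and for THBS2, the weakly expressed relative of THBS1, so that the promoters of genes at different levels can be read side by side. The sequences come from RefSeq on GRCh38.p14, matched by symbol (8 of 8 genes), and are written 5′ to 3′ on the strand of the gene. Capitals mark matches to the motifs searched: the TEAD site GGAATG, the SMAD box CAGAC and the GC box GGGCGG, each on both strands, and the TATA box TATAAA on the gene's strand.
THBS1 (chr15:39580829-39581078, plus strand): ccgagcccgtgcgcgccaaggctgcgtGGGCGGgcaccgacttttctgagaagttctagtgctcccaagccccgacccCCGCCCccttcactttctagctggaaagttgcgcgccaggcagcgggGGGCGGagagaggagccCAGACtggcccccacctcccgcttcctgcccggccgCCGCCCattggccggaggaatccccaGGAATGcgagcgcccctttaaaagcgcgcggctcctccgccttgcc
THBS2 (chr6:169253847-169254096, minus strand): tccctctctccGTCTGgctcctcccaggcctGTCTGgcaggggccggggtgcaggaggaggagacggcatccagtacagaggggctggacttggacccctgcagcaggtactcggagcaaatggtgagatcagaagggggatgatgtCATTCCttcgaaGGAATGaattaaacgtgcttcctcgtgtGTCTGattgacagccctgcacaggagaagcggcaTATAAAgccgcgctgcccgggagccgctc
TGFBI (chr5:136028738-136028987, plus strand): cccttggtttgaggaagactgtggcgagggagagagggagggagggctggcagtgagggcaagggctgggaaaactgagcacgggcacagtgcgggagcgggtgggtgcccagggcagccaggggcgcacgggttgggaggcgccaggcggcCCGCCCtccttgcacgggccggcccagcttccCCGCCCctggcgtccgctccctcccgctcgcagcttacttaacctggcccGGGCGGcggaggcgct
SPARC (chr5:151686916-151687165, minus strand): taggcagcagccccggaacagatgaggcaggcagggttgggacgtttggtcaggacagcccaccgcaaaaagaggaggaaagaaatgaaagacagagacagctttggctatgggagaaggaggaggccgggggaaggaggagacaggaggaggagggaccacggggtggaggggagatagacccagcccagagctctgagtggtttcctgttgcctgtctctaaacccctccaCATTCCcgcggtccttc
TNC (chr9:115118158-115118407, minus strand): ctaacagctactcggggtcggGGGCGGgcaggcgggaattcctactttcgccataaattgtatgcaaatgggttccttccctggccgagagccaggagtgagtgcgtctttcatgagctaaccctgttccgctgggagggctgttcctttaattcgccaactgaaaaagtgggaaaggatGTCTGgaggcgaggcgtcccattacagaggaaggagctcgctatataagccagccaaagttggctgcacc

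The THBS1 stretch holds 4 GC boxes, 1 SMAD box and 1 TEAD site, the last from position -46 to -41 relative to the start. TGFBI holds 3 GC boxes and no other match, and 72.8% of its bases are G or C. SPARC holds 1 TEAD site at -17 to -12, and THBS2 holds 2 TEAD sites, 3 SMAD boxes and a TATA box. TNC holds 1 GC box and 1 SMAD box. Over the 8 genes, a TEAD site was found in 3, a SMAD box in 5, a GC box in 4 and a TATA box in 2, while 11.9%, 38.0%, 42.6% and 6.8% of 35116 RefSeq promoter stretches of the same length hold them. An AP-1 site (TGANTCA) was found in 1 of the 8 genes, POSTN, and in 6.57% of all stretches. The E-box CACGTG was found in 0 of the 8 and in 6.34% of all stretches, and the CArG box in 0 of the 8 and in 1.16%. THBS1, TGFBI and SPARC, the genes with the 3 largest log2FC, share none of these motifs among all 3. Nothing is read from these counts beside the shares, because the motifs were chosen with these sequences in view. The counts are also per gene, and THBS3 has 2 start sites, whereas the shares are per stretch. These matches are letters in a short window and not measured binding sites. In the GENCODE annotation, the genes SPARC, THBS2, TNC and TGFBI start 250, 198, 100 and 93 bases upstream of the RefSeq start, inside or at the edge of these stretches, and for THBS1 the starts coincide.

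The genes whose profiles lay nearest to those of the 3 most abundant members were found from the distance between log2 CPM values centred on each gene's mean, over the 6 libraries. Genes with a difference of like size between the groups and like replicate values lie near each other by this measure. Nearest to THBS1 were SFTA1P, ANKRD1 and PMEPA1, at distances of 0.056, 0.092 and 0.10. ANKRD1, a cardiac ankyrin-repeat protein widely used as a readout of YAP activity, had 892 ± 25.3 CPM under control shRNA and 1784 ± 60.6 CPM under PELP1-KD (SD, n = 3 each). TGFBI was nearest to IL11, COL4A1 and SCARF1, at 0.11, 0.12 and 0.12. IL11, a cytokine of the IL-6 family, had 116 ± 7.14 CPM under control shRNA and 264 ± 3.72 CPM under PELP1-KD (SD, n = 3 each). THBS1 and TGFBI were 0.19 apart. TNC was nearest to KREMEN1, ECM1 and PPME1, at 0.048, 0.057 and 0.062, and 0.71 from THBS1.

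Of 26 listed receptors of these proteins 17 were tested, and 5 rose and 10 fell at an adjusted p-value below 0.05, beside 22.7% and 24.2% of all tested genes. The median log2FC was -0.17, beside 0.0014 over all tested genes. This list and the other lists of related genes below were chosen with earlier results of these data known. Nothing is read from their counts or medians beside the values of all tested genes. CD36, the receptor through which THBS1 inhibits endothelial growth, had between 0 and 2 counts per library. CD47, the other classical THBS1 receptor and the signal by which cells evade phagocytosis, fell from a mean of 100.4 ± 3.29 CPM to 81.4 ± 2.11 CPM (SD, n = 3 each), with a log2FC of -0.30 (SE 0.044, edgeR adjusted p-value 9.98e-06). CD44, the hyaluronan receptor that also binds osteopontin, fell from a mean of 1209 ± 31.1 CPM to 828 ± 1.47 CPM (SD, n = 3 each), with a log2FC of -0.55 (adjusted p-value 8.62e-13 from the same test).

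The largest rise among the receptors was that of ITGB3, the β3 integrin subunit that pairs with ITGAV to bind the RGD sequence found in several matricellular proteins. ITGB3 had 59, 92 and 78 counts in replicates 1, 2 and 3 of the control and 286, 340 and 359 counts in those of PELP1-KD. Its log2FC was 1.94 (SE 0.11, edgeR adjusted p-value 8.61e-12). Its partner ITGAV, named after its values were seen, was at 233 CPM in control and 232 CPM in PELP1-KD cells and did not pass the test, with a log2FC of -0.0069 (SE 0.044). LRP1, the endocytic receptor that clears thrombospondins, rose from a mean of 13.3 ± 0.742 CPM to 23.1 ± 0.717 CPM (SD, n = 3 each), with a log2FC of 0.79 (adjusted p-value 3.43e-08). The largest falls were those of ITGA2, the α2 subunit of a collagen receptor, with a log2FC of -0.91 (adjusted p-value 2.57e-11), and ITGA3, the α3 subunit of a laminin receptor that also binds THBS1, with -0.60 (adjusted p-value 6.83e-13).

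Of 28 other matricellular proteins listed, 10 were tested. At an adjusted p-value below 0.05, 3 of the 10 rose and 5 fell, where 22.7% and 24.2% of all tested genes did, and the median log2FC was -0.24. CYR61, which promotes integrin-mediated adhesion, rose from a mean of 1731 ± 26.9 CPM to 2526 ± 31.3 CPM (SD, n = 3 each), with a log2FC of 0.55 (edgeR adjusted p-value 1.27e-13). CTGF, a profibrotic factor, rose from a mean of 644 ± 7.98 CPM to 921 ± 12.2 CPM (SD, n = 3 each), with a log2FC of 0.52 (adjusted p-value 1.92e-12). NOV, a further CCN family member, fell from a mean of 7.19 ± 1.38 CPM to 3.86 ± 0.168 CPM (SD, n = 3 each), with a log2FC of -0.89 (adjusted p-value 2.80e-05). FBLN1 (fibulin 1), a glycoprotein of basement membranes and elastic fibres, fell with a log2FC of -0.93 (adjusted p-value 7.52e-05). FSTL1, a secreted relative of SPARC that was named after its values were seen, had 654 CPM in control and 480 CPM in PELP1-KD cells and fell with a log2FC of -0.44 (standard error 0.029). The third rise was that of TNXB, named after its values were seen, at a mean of 0.714 CPM in control and 1.20 CPM in PELP1-KD cells, which lost its call in DESeq2 (adjusted p-value 0.139), was not tested with 10 counts required in every replicate, and lost the call without control replicate 2 or 3 or PELP1-KD replicate 2 or 3 (adjusted p-values between 0.065 and 0.132).

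TGF-β is made as a latent complex that LTBP proteins tether to the matrix and that THBS1 and integrins can open. Of 26 listed genes of ligands, latency proteins, receptors and feedback 25 were tested, and 9 rose and 8 fell, where 22.7% and 24.2% of all tested genes did. The median log2FC of the list was 0.0034. The largest rises were those of a feedback gene and a latency protein. PMEPA1, a TGF-β-induced inhibitor of the pathway, rose from a mean of 74.0 ± 2.25 CPM to 148 ± 2.43 CPM (SD, n = 3 each; edgeR adjusted p-value 7.78e-14), and LTBP3 rose with a log2FC of 0.88 (adjusted p-value 3.27e-08). LTBP1 fell from a mean of 25.3 ± 0.384 CPM to 11.3 ± 1.04 CPM (SD, n = 3 each), with a log2FC of -1.16 (adjusted p-value 2.38e-10). SMURF2, a ubiquitin ligase that targets SMADs and receptors for degradation, fell with a log2FC of -0.57 (adjusted p-value 2.20e-11).

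The matrix list held the proteins that matricellular proteins bind and the enzymes that modify them. Of 29 listed genes 22 were tested, and 10 rose and 7 fell, where 22.7% and 24.2% of all tested genes did. The median log2FC of this list was 0.16. VCAN, the large proteoglycan versican, had 25, 35 and 28 counts in replicates 1, 2 and 3 of the control and 189, 183 and 201 counts in those of PELP1-KD, a log2FC of 2.54 (edgeR adjusted p-value 1.44e-11). LTBP2, a microfibril protein that does not bind latent TGF-β, rose with a log2FC of 2.05. The largest falls were those of COL8A1, a short-chain collagen, with a log2FC of -0.69 (adjusted p-value 1.40e-10), and LOX, the enzyme that crosslinks collagen and elastin, with -0.56 (adjusted p-value 9.25e-08).

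Of 21 listed proteases that cut matricellular proteins 12 were tested, and 3 rose and 8 fell, where 22.7% and 24.2% of all tested genes did. The median log2FC of the proteases was -0.32. The falls were led by the collagenase MMP1, with a log2FC of -2.08, and by HTRA1, a secreted serine protease that degrades matrix proteins, with a log2FC of -2.01 (SE 0.15, edgeR adjusted p-value 7.88e-10). With a log2FC below -1 as well as an adjusted p-value below 0.05, 3 proteases (MMP1, HTRA1 and ADAMTS1) were called, where 1.34% of all tested genes were. In the TGF-β list, 1 of 25 tested genes was called lower by this rule. With a log2FC above 1, 4 of 22 tested genes of the matrix list and 1 of 17 tested receptors were called, where 1.9% of all tested genes were. The list of other matricellular proteins had 0 such calls in either direction. ADAMTS1, which cuts both thrombospondins 1 and 2 and was named after its values were seen, had a log2FC of -1.01 (standard error 0.11). The rises were smaller, with a log2FC of 0.63 in CTSS, the lysosomal protease cathepsin S (adjusted p-value 6.02e-05), and 0.43 in BMP1, the procollagen C-proteinase (adjusted p-value 8.03e-04).

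**Figure D4:**
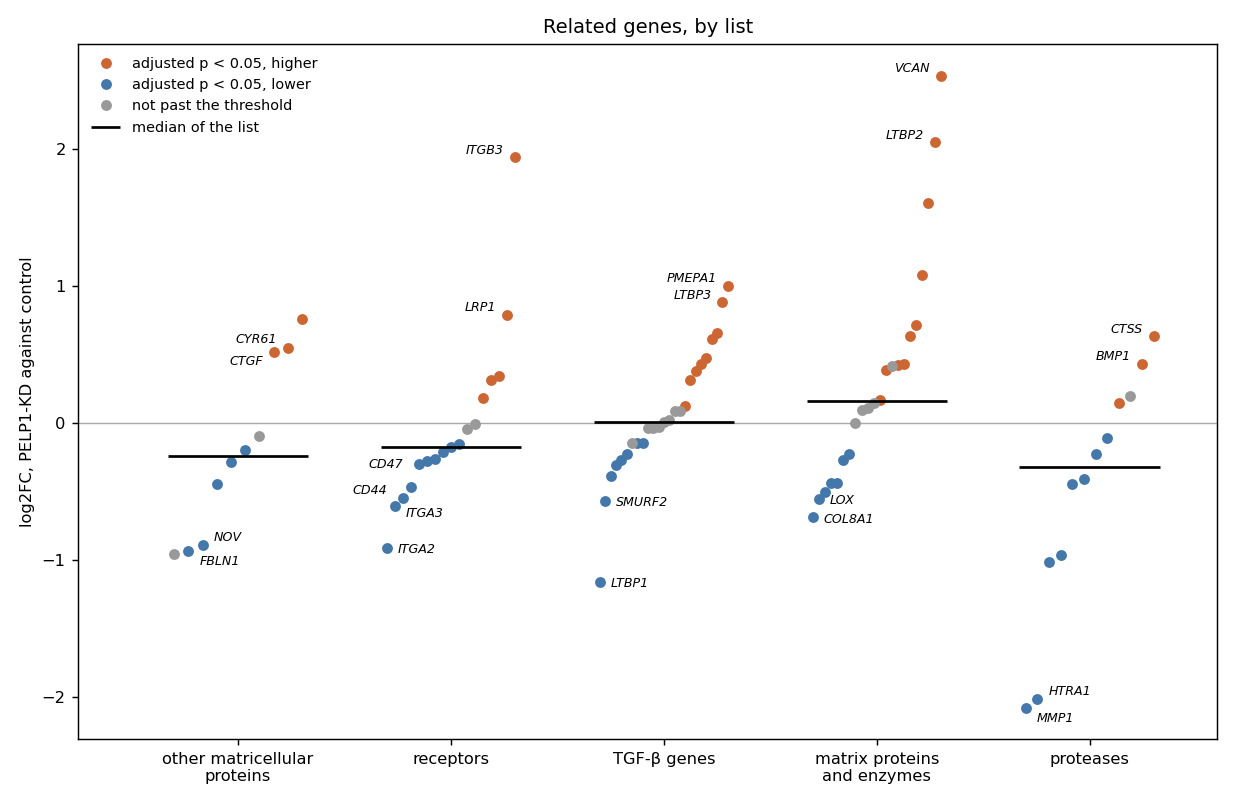
log2FC, PELP1-KD against control, of every tested gene in the 5 lists of related genes (dots), with rises in orange and falls in blue at an adjusted p-value below 0.05, other genes in grey and the median of each list as a black line. The medians run from -0.32 in the proteases to 0.16 in the matrix list, and ITGB3, VCAN and LTBP2 stand highest in their lists.

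Several of the 8 genes are typical of fibroblasts and endothelial cells, so that markers of these cells were read beside them. The 6 fibroblast markers together had 19.4 to 24.1 CPM in control and 61.8 to 66.9 CPM in PELP1-KD libraries. This sum came almost entirely from PDGFRB and COL1A1, which rose with a log2FC of 1.53 and 1.61, and COL1A1 is also in the matrix list. The defining fibroblast genes DCN and FAP had 0 counts in each library, and PDGFRA had at most 1 count. LUM had 0, 0 and 1 counts in control and 5, 2 and 6 counts in PELP1-KD libraries. The 5 endothelial markers together had 2.65 to 3.48 CPM in control and 2.05 to 2.42 CPM in PELP1-KD libraries. Among them, VWF rose from 1, 6 and 0 counts to 12, 20 and 16 counts, KDR fell with a log2FC of -1.03, and TEK had 0 counts in each library. VWF was low throughout, at 0.059, 0.264 and 0 CPM in control and 0.616, 0.937 and 0.680 CPM in PELP1-KD libraries. It passed the filter on low counts, at 0.498 CPM, through the PELP1-KD libraries alone. Of the leukocyte markers, PTPRC had 0 counts in each library and CD3E at most 2, and the sum of the list, nearly all of it CD68, was 117 to 120.0 CPM in control and 90.7 to 97.7 CPM in PELP1-KD libraries. The part of these markers in the differences of the 8 genes was not tested.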

How the data were processed

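The 6 RNA-seq libraries of MDA-MB-231 were 3 with control shRNA and 3 with PELP1-KD, and groups and replicate numbers came from the sample labels. For each library the authors deposited raw read counts per gene symbol. The submitters' processing notes name bcl2fastq, TopHat2, SAMtools and HTSeq and the build hg19, without versions; the annotation and the strand setting of the counting are not given in the sources used here. Reads with more than 1 alignment were counted on no gene. Of all counts listed, gene rows and closing rows together, between 41.0% and 41.4% per library lay in closing rows that name no gene. These rows were left out, and their share is of counts, which need not be a share of reads.

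Genes passing filterByExpr (minimum count 10) were scaled by TMM and tested genome-wide by the quasi-likelihood test of edgeR 4.0.16 in R 4.3.3, with Benjamini-Hochberg adjustment over 12796 genes. The standard error of a log2FC is its size divided by the square root of the F statistic. CPM and RPKM used TMM-scaled library sizes, and RPKM used summed exon lengths from GENCODE release 29 (GRCh38). The scripts were tested on simulated data. Alternatives were RLE size factors, library totals alone, DESeq2 1.42.0, voom in limma 3.58.1, 2 other filters, the replicate number as a block and each replicate left out. The study's methods used DESeq2. Promoter sequences came from RefSeq on GRCh38.p14, and the motifs were chosen with these sequences in view.

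The members, the gene lists and the tests were chosen with earlier results of these data known. Named are all members, PELP1, CD36, CD47, CD44, THBS4, COMP and SPARCL1. From each of the 5 lists, the 2 largest rises and falls are named among genes with adjusted p below 0.05, groups that do not overlap and a mean of at least 1 CPM. For the 3 members with the highest CPM, the 3 genes with the nearest profile are named. Other genes are named as chosen after their values were seen. The proteomics and TCGA analyses were not analysed here.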

Additional observations from a re-analysis of the deposited data

How the results depend on the processing

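Under 13 alternatives, the log2FC of each of the 6 tested matricellular genes stayed positive. THBS1 stayed between 1.01 and 1.08, TGFBI between 1.13 and 1.20, SPARC between 1.49 and 1.62, TNC between 0.43 and 0.50, THBS3 between 0.64 and 0.82 and THBS2 between 0.42 and 0.77. THBS2 passed the call under 1 alternative, without PELP1-KD replicate 2. The highest values of THBS1 and TGFBI came from library totals alone, which raised the median log2FC of all genes from 0.0014 to 0.051. Of the 68 list genes called, 7 lost the call under at least 1 alternative (TNXB, SMAD4, SMAD6, SMURF1, TGFBR3, TLR4 and CTSB), and 4 others gained it. When each replicate had to hold at least 10 counts, 134 genes were called higher and 106 lower with a log2FC beyond 1, in place of 243 and 171. This setting tested 12237 genes in place of 12796, and each gene it left out had fewer than 10 counts in at least 1 library. Same-numbered replicates deviated from their group means with correlations of 0.039, 0.065 and -0.078, and 1 of 3 controls correlated best with its own number. With 3 libraries per group, these values cannot decide whether the numbers pair the samples, and the main fit did not use the numbers. Under a replicate block, 3140 genes were higher and 3335 lower in place of 2904 and 3103, and 5 of the matricellular genes were called as before. Nothing is read from the calls of the matricellular genes under any setting, because this same contrast was known when they were chosen. Low counts limit THBS2 and THBS3, and depth limits POSTN and SPP1.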

Other observations

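The remaining thrombospondins and SPARCL1 had few or no counts in these cells. THBS4 had between 4 and 9 counts per library. COMP, the fifth thrombospondin, and SPARCL1, the closest relative of SPARC, had 0 counts in each library, which is below the floor of detection of 3 counts.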
